A study of Mus musculus with 6 samples.

Results

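The insulin-like growth factor (IGF) system was examined here through 10 genes: the ligand genes Igf2 and Igf1, the imprinted RNA gene H19 beside Igf2, the receptor gene Igf1r, the mRNA-binding protein genes Igf2bp1, Igf2bp2 and Igf2bp3, and the binding protein genes Igfbp2, Igfbp4 and Igfbp5. They were taken by gene symbol from the 53801 genes of a table of read counts, and all 10 were found and tested. IGF2 is known as a target of BAHD1 in human cells. Polyadenylated RNA was sequenced from the whole brain of C57BL/6 mouse embryos at E16.5, with 3 Bahd1-KO embryos (genotype Bahd1-/-) and 3 wild type embryos (Bahd1-WT). BAHD1 is a scaffold protein of complexes that form repressive chromatin, and the comparison asked whether its absence changed the level of these genes before birth. The knockout was carried in every cell, and neither the litter nor the sex of an embryo was given in the labels.

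IGF1 and IGF2 are secreted growth factors that signal through the tyrosine kinase receptor IGF1R, while IGF-binding proteins hold the ligands outside the cell and IGF2R takes up IGF2 for degradation. Igf2 and H19 lie side by side and share enhancers. An insulator between them is methylated on the paternal chromosome. In most tissues it leaves Igf2 expressed mainly from the paternal allele and H19 from the maternal allele. The counts read here do not tell the alleles apart. In the embryonic brain, Igf2 is known from the meninges, the choroid plexus and blood vessels rather than from neurons.

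The libraries held between 61.7 and 91.8 counts in units of 1e6. Bahd1, the deleted gene, had 2, 10 and 6 counts in the libraries labelled Bahd1-KO (replicates 1, 2 and 3), against 1971, 3102 and 3470 in those labelled Bahd1-WT. It was the single gene past an adjusted p of 0.05 among 24739 tested (log2 fold change -8.40 ± 0.61 SE, adjusted p = 0.0462, edgeR). Bahd1-KO replicate 3 stood apart from the brains of both genotypes. Its summed level of 10 lung markers was 2046 CPM (counts per 1e6 counts, scaled with the TMM factors of edgeR) against 14.8 to 29.0 CPM in the other 5 embryos, and all 10 were highest in it. Markers of meninges and connective tissue summed to 2360 CPM against 365 to 475 CPM, with 7 of 10 highest in this embryo and 3 lowest. Skeletal muscle markers summed to 132 CPM against 4.75 to 14.9 CPM (9 of 10 highest). Neuron markers summed to 2555 CPM against 8523 to 10685 CPM, with 6 of 10 lowest in this embryo and 1 highest. No marker on these 4 lists was at 0 in every embryo. The markers of Bahd1-KO replicate 3 thus go against a label of brain alone, and fold changes are given with and without this embryo. Bahd1-KO replicate 2 stays in those fits. Its 10 placenta markers summed to 13.4 CPM, against at most 0.157 CPM in any other embryo. The lung marker Sftpc was at 2.66 CPM in it, against 0 to 0.109 CPM in Bahd1-WT. Its sum of lung markers was 29.0 CPM, beside 24.4 CPM in Bahd1-KO replicate 1. The part of such RNA in the fits without Bahd1-KO replicate 3 was not tested.

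Igf2 is encoded on the minus strand of chromosome 7 (142650766 to 142666816, GRCm38). What its row in the table could record depends on a second gene. Gm49394, listed there as AC013548.1, runs along the same strand and shares 3596 of the 5723 exon bases of Igf2 (62.8%). These include all 540 coding bases of the Igf2 coding sequence, which lie in 3 exons, and 3284 bases of the last exon. A read that falls on exons of 2 genes on the same strand is given to neither by the counting tool at its default setting, and the row of Gm49394 itself held 0, 1 and 0 counts for the Bahd1-KO replicates and 0, 1 and 2 for the Bahd1-WT replicates. With the exon models used here, the Igf2 counts would therefore come from 2127 bases, of which 1912 lie upstream of the coding sequence and 215 do not. Under such counting they understate the level of Igf2. The Ensembl 92 annotation that the authors counted with was not used here. In the annotation used here (GENCODE M21), 2.31% of 53706 genes shared most of their exon bases in this way. The first and second of the 3 coding exons, read from GRCm38 on the minus strand, are shown because they belong to the stretch where such counting credits no read to Igf2, with the start codon in capitals. Coding exon 1 lies at chr7:142655654-142655810 and coding exon 2 at chr7:142654300-142654448.
Igf2 coding exon 1: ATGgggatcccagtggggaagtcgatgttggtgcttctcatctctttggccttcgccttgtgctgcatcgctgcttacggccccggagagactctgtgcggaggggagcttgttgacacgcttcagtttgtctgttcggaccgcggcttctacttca
Igf2 coding exon 2: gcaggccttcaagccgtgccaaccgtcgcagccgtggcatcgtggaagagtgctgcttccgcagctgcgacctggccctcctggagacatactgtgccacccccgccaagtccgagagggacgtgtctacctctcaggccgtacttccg

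**Figure D1:**
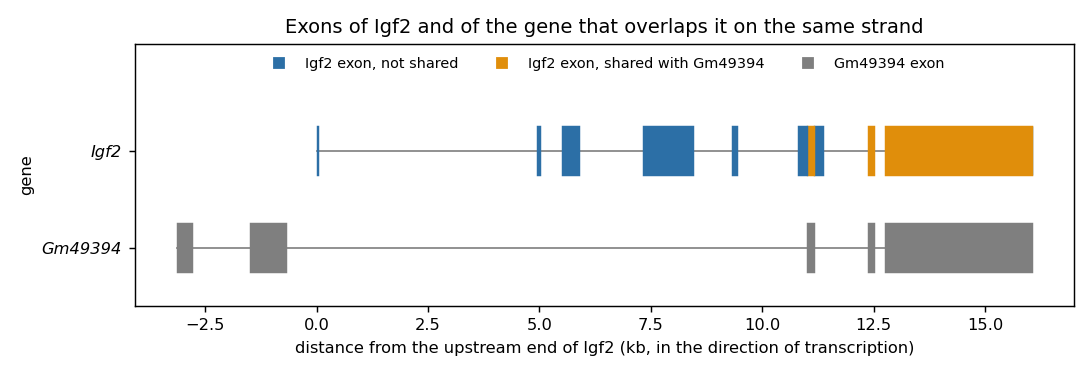
Exons of Igf2 and Gm49394 drawn to scale along the direction of transcription, with distance in kb from the upstream end of Igf2. Orange marks the 3596 exon bases that both genes share and blue the 2127 bases that belong to Igf2 alone, which hold none of the 540 coding bases.

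For Igf2 the table listed 739, 1216 and 3173 counts in the Bahd1-KO embryos, replicates 1, 2 and 3, and 1273, 1677 and 1282 counts in the Bahd1-WT embryos. On the scaled level these were 11.3, 14.4 and 58.8 CPM in Bahd1-KO and 13.3, 19.02 and 12.7 CPM in Bahd1-WT. Bahd1-KO replicate 3 was 4.16 times the mean of the other 5 embryos, whose values spanned 1.69 times from lowest to highest, and the genotypes overlapped. Between genotypes the log2 fold change came to 0.91 ± 0.63 SE (95% interval -0.58 to 2.40, adjusted p = 0.696, edgeR). Without Bahd1-KO replicate 3 it turned to -0.23 ± 0.28 SE (95% interval -0.89 to 0.42, adjusted p = 0.981, edgeR). With these 5 embryos, the interval in linear terms ran from 0.539 to 1.34 times the Bahd1-WT level. Higher Igf2 stood beside higher summed levels of the lung, connective tissue and muscle markers in the same embryo, while choroid plexus markers were mixed. They summed to 188 CPM there against 321 to 818 CPM in the others with Ttr, which carried most of the sum, and to 132 against 73.5 to 123 CPM without Ttr, with 5 of the 10 highest and 5 lowest in this embryo. The part of these tissues in the Igf2 value was not tested. In whole-brain RNA, fewer cells of a type and less RNA per cell cannot be told apart.

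H19 lies 72.6 kb from Igf2 on the same strand of chromosome 7 (142575529 to 142578143) and gives a long non-coding RNA. It is also the host of miR-675, whose hairpin occupies 84 of its 2460 exon bases. Mir675 was at 0 counts in all 6 embryos, where reads on the shared bases would be given to neither gene and the extraction kit removed RNA under 200 nucleotides, so the table does not measure the miRNA. Its mature arms, from RefSeq (GRCm38.p6) and shown because they are the known small product of H19, carry different seeds, which are bases 2 to 8 and are in capitals.
mmu-miR-675-5p: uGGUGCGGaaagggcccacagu
mmu-miR-675-3p: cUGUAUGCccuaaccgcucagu

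H19 levels were 209, 307 and 2907 CPM in the Bahd1-KO replicates and 237, 286 and 360 CPM in the Bahd1-WT replicates. Bahd1-KO replicates 1 and 2 lay on either side of Bahd1-WT replicates 1 and 2, and replicate 3 was 10.4 times the mean of the other 5 embryos, the largest excess of the 10 genes. Its log2 fold change came to 1.96 ± 0.96 SE (95% interval -0.31 to 4.22, adjusted p = 0.696, edgeR) with all embryos. It was -0.19 ± 0.26 SE without Bahd1-KO replicate 3 (95% interval -0.80 to 0.41, adjusted p = 0.981, edgeR). Leaving out Bahd1-KO replicate 1 instead gave 2.45 (unadjusted p = 0.0243, adjusted p = 0.486, edgeR). In that fit 2451 of 24309 genes had an unadjusted p under 0.05. Leaving out Bahd1-KO replicate 2 gave 2.37 (unadjusted p = 0.0368, adjusted p = 0.239, edgeR), in a fit where 4878 of 24149 genes had one. DESeq2 gave no p for H19 with all 6 embryos.

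Because both genes were read in the same library, their ratio does not depend on scaling. There were 18.6, 21.3 and 49.4 H19 counts for each Igf2 count in the Bahd1-KO replicates, and 17.8, 15.0 and 28.3 in the Bahd1-WT replicates. Bahd1-KO replicate 3 had the most H19 per Igf2, followed by Bahd1-WT replicate 3, and the genotypes overlapped. The log2 ratio of Igf2 to H19 averaged -4.75 ± 0.76 over the Bahd1-KO embryos and -4.30 ± 0.47 over the Bahd1-WT embryos (SD, n = 3), a difference of -0.46 (p = 0.5, exact two-sided permutation test, smallest possible p 0.1). Without Bahd1-KO replicate 3 the difference was -0.018 (p = 1, exact two-sided permutation test, smallest possible p 0.2). Under such counting the Igf2 part of this ratio rests on its unshared exons alone. The ratio therefore compares embryos and does not give the abundance of H19 relative to Igf2.

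Igf1, the other ligand gene (chromosome 10, 87858265 to 87937042, plus strand), had 55.6, 33.7 and 242 CPM in the Bahd1-KO and 44.6, 28.2 and 22.7 CPM in the Bahd1-WT replicates. Bahd1-KO replicate 3 was 6.56 times the mean of the other 5 embryos. Bahd1-KO replicate 1 lay above the Bahd1-WT range and Bahd1-KO replicate 2 within it. A log2 fold change of 1.80 ± 0.73 SE had an unadjusted p of 0.0435 and an adjusted p of 0.696 (edgeR). It was 0.47 ± 0.34 SE without Bahd1-KO replicate 3, with an unadjusted p of 0.206 (edgeR). Leaving out Bahd1-KO replicate 2 instead gave 2.20 (unadjusted p = 0.00946, adjusted p = 0.235, edgeR). In that fit 20.2% of all genes had an unadjusted p under 0.05. Over 17 alternative fits the value stayed positive, from 0.47 to 2.20. In the main fit with all embryos, Igf1 was the single gene of the 10 with an unadjusted p under 0.05, against a background of 4.67% of all genes tested. With no filter on counts, H19 had one too (0.0464, edgeR), as did 2010 of 33751 genes. Without Bahd1-KO replicate 3, 0 of the 10 had one (background 1.48%).

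**Figure D2:**
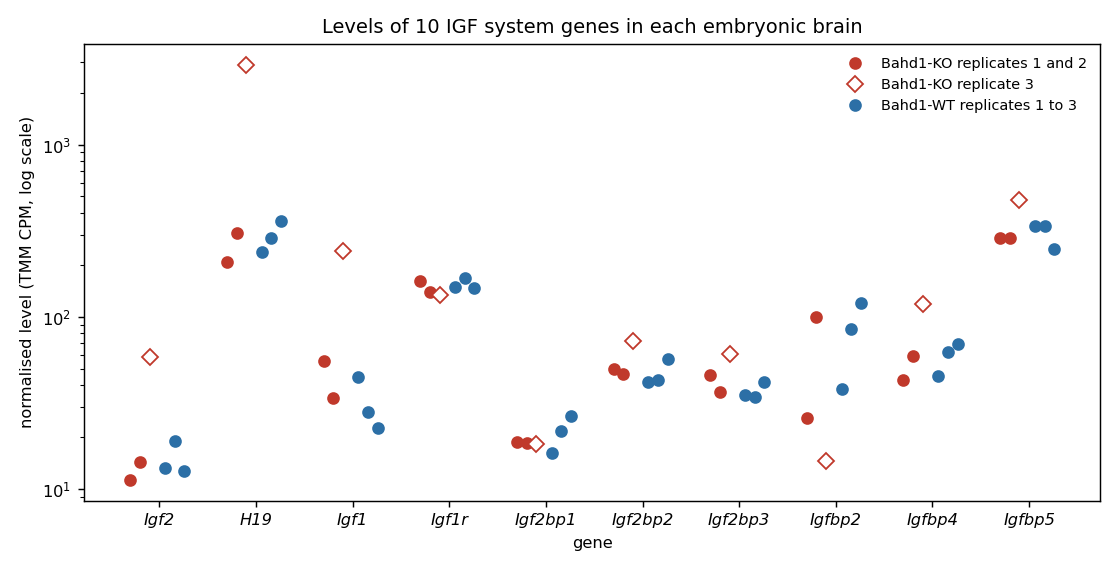
Level of each of the 10 genes in each embryo, in TMM-scaled CPM on a log axis, with 1 symbol per embryo and no averaging. The open diamond of Bahd1-KO replicate 3 is the highest value for 7 genes and the lowest for Igf1r and Igfbp2, while the other 5 embryos of both genotypes overlap for every gene.

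Igf1r, the receptor gene, encodes the kinase through which both ligands act (chromosome 7, 67952827 to 68233668, plus strand). Its level was 162, 139 and 134 CPM in the Bahd1-KO and 150, 169 and 148 CPM in the Bahd1-WT replicates. It varied least of the 10 genes, by 1.21 times from lowest to highest in the 5 embryos other than Bahd1-KO replicate 3, which was lowest of all. The genotypes differed by a log2 fold change of -0.10 ± 0.22 SE (95% interval -0.61 to 0.41, adjusted p = 0.880, edgeR), and by -0.060 ± 0.18 SE without Bahd1-KO replicate 3 (95% interval -0.49 to 0.37). These 5 embryos thus leave room for Igf1r between 0.714 and 1.29 times the Bahd1-WT level.

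The IGF2BP proteins bind Igf2 mRNA and many other transcripts, and act on their stability, transport and translation in the embryo. Igf2bp1 (chromosome 11, 95957163 to 96005940, minus strand) had 18.8, 18.5 and 18.3 CPM in the Bahd1-KO and 16.3, 21.8 and 26.4 CPM in the Bahd1-WT replicates. All 3 Bahd1-KO values fell between the lowest and the next Bahd1-WT value. edgeR gave a log2 fold change of -0.21 ± 0.27 SE (adjusted p = 0.790), and -0.22 without Bahd1-KO replicate 3.

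Igf2bp2 (chromosome 16, 22059009 to 22163299, minus strand) had 49.8, 46.6 and 72.1 CPM in Bahd1-KO and 41.9, 42.8 and 57.1 CPM in Bahd1-WT replicates. Igf2bp3 (chromosome 6, 49085223 to 49214957, minus strand) had 45.9, 36.8 and 61.2 CPM in Bahd1-KO and 35.2, 34.1 and 42.1 CPM in Bahd1-WT replicates. Bahd1-KO replicate 3 was highest for both, at 1.51 and 1.58 times the mean of the other embryos, and the remaining values overlapped between genotypes. For Igf2bp2 edgeR gave a log2 fold change of 0.25 ± 0.27 SE (adjusted p = 0.762) and 0.014 without Bahd1-KO replicate 3. That of Igf2bp3 was 0.37 ± 0.27 SE (adjusted p = 0.696, edgeR) and 0.14 without this embryo. Per kb of exon, Igf2bp2 made up 47.0 to 50.9% of the summed level of these 3 genes across the 6 embryos. Igf2bp3 made up 33.0 to 39.3% and Igf2bp1 9.94 to 18.6%, so the order Igf2bp2, Igf2bp3, Igf2bp1 was the same in every embryo.

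IGF-binding proteins carry the ligands and limit their access to the receptor. Igfbp2 and Igfbp5 are neighbours on chromosome 1, 5.46 kb apart (72824503 to 72852474 on the plus strand and 72857932 to 72874884 on the minus strand). Igfbp2 had 26.0, 99.2 and 14.5 CPM in Bahd1-KO and 38.0, 84.6 and 120 CPM in Bahd1-WT replicates. Bahd1-KO replicate 3 was lowest, at 0.197 times the mean of the other 5, and those 5 spanned 4.64 times, the widest range of the 10 genes. Bahd1-KO differed from Bahd1-WT by a log2 fold change of -0.80 ± 0.74 SE (95% interval -2.55 to 0.95, adjusted p = 0.722, edgeR), and by -0.37 ± 0.61 SE without Bahd1-KO replicate 3 (95% interval -1.79 to 1.05). Leaving out Bahd1-KO replicate 2 instead gave -2.04 (unadjusted p = 0.00979, adjusted p = 0.235, edgeR), in a fit where 20.2% of all genes had an unadjusted p under 0.05.

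The values of Igfbp2 were read beside the base composition of transcripts. Its longest annotated transcript is 62.1% GC, and 98.6% of 14812 genes compared had a lower GC content by the same measure. The 1482 genes with the highest GC content had median deviations of log2(CPM + 0.5) from their means of -0.67, 0.42 and -0.79 in the Bahd1-KO replicates and -0.21, 0.59 and 0.59 in the Bahd1-WT replicates. Igfbp2 deviated by -0.92, 0.99 and -1.74 and by -0.38, 0.77 and 1.27 in the same embryos, with the same sign in all 6. The members next in GC content were Igf2, H19 and Igfbp4 (higher than 82.7, 82.6 and 79.1% of genes). In Bahd1-KO replicate 3 they deviated by 1.70, 2.83 and 0.91, opposite in sign to Igfbp2. The choroid plexus markers summed to 321, 818 and 188 CPM in the Bahd1-KO and 378, 452 and 772 CPM in the Bahd1-WT replicates. Without Ttr, these sums were 82.8, 123 and 132 CPM and 87.4, 73.5 and 102 CPM. The part of GC content or of choroid plexus in the Igfbp2 values was not tested.

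Igfbp5 had 287, 286 and 479 CPM in Bahd1-KO and 335, 337 and 248 CPM in Bahd1-WT replicates. Igfbp4 (chromosome 11, 99041244 to 99054392, plus strand) had 42.9, 58.9 and 118 CPM in Bahd1-KO and 45.6, 62.3 and 70.0 CPM in Bahd1-WT replicates. Both were highest in Bahd1-KO replicate 3, at 1.60 and 2.11 times the mean of the other embryos. For Igfbp5 the fitted log2 fold change came to 0.19 ± 0.30 SE (adjusted p = 0.832, edgeR), and -0.11 ± 0.21 SE without Bahd1-KO replicate 3. That of Igfbp4 was 0.31 ± 0.41 SE (adjusted p = 0.7998, edgeR), and -0.23 ± 0.26 SE without it. The signs of both also turned when libraries were scaled by total counts in place of TMM factors, to -0.060 for Igfbp5 and -0.0081 for Igfbp4, with the median of all genes at -0.11 under that scaling against 0.060.

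Read together, 0 of the 10 genes passed an adjusted p of 0.05, where 0.00404% of all genes tested did (edgeR). DESeq2 likewise called 0 of the 9 for which it gave a p, against 0.0334% of all genes, with 1 (Igf1) at an unadjusted p under 0.05 (background 5.28%). With all embryos 7 of the 10 had a positive log2 fold change and the median was 0.28, beside 0.060 over all genes. Without Bahd1-KO replicate 3, 3 had a positive fold change and the median was -0.15, beside -0.0079 over all genes, and again 0 of the 10 passed (background 0.0171%). None had genotypes that did not overlap, with a background of 6.71% of genes with all embryos and 10.7% without Bahd1-KO replicate 3. That embryo held the highest value for 7 of the 10 genes, where it held the highest for 38.1% of all genes tested.

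**Figure D3:**
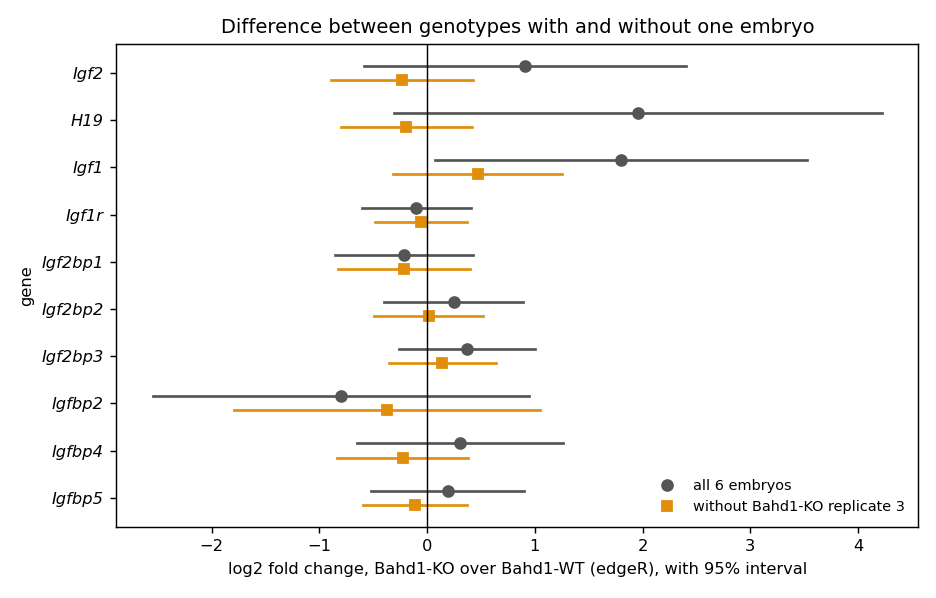
Log2 fold change of Bahd1-KO over Bahd1-WT for each gene from edgeR, with 95% intervals as bars. Circles use all 6 embryos and squares leave out Bahd1-KO replicate 3, which moves H19 from 1.96 to -0.19 and Igf2 from 0.91 to -0.23 and narrows the intervals.

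The levels of the genes relative to each other were read per kb of exon not shared with another gene on the same strand, as the mean of the Bahd1-WT replicates. H19 was highest, at 124 ± 26.1 CPM per kb (SD, n = 3), which placed it at rank 153 of 24231 genes. It was followed by Igfbp5 (51.1 CPM per kb), Igfbp2 (43.9), Igfbp4 (13.4), Igf1r (9.25), Igf2 (7.05), Igf2bp2 (6.39), Igf2bp3 (4.55), Igf1 (3.21) and Igf2bp1 (2.24). The Bahd1-WT ranges overlapped between Igfbp5 and Igfbp2, Igf1r and Igf2, Igf2 and Igf2bp2, Igf2bp3 and Igf1, and Igf1 and Igf2bp1. These neighbours in the order were not separated beyond their spread. Igfbp2, Igfbp4 and Igfbp5 thus stood above the ligand gene Igf1. Igf2 would be read only over its unshared exon bases, so its place in this order does not give its abundance relative to the other genes. In Bahd1-KO replicate 3, H19 reached 1224, Igf2 27.7 and Igf1 24.5 CPM per kb, while Igfbp2 stood at 7.86 CPM per kb.

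**Figure D4:**
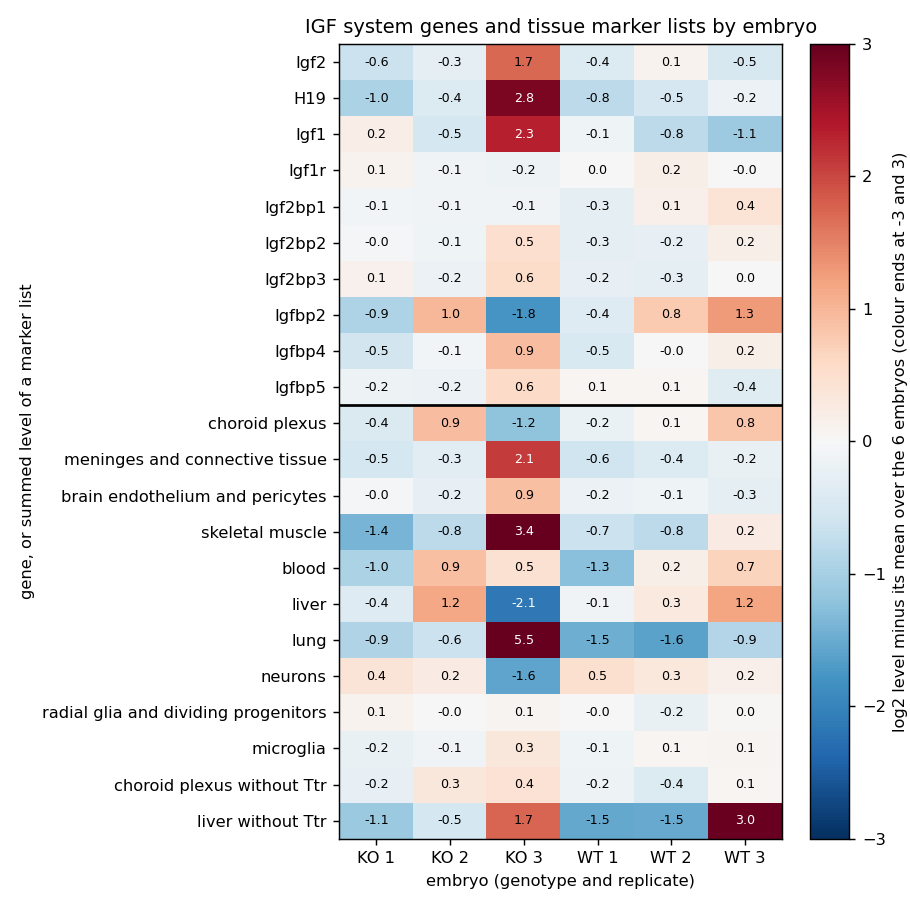
Log2 level of each gene (above the line) and log2 of the summed level of each tissue marker list (below it, choroid plexus and liver also without Ttr), each minus its mean over the 6 embryos, with the value printed in each cell and the colour ending at -3 and 3. Bahd1-KO replicate 3 is high for Igf2, H19 and Igf1 in the same column as the lung, muscle and connective tissue lists, and low for Igfbp2 and for the neuron list.

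The genes whose profile over the 6 embryos was most like that of H19 were Myl4, Kank2, Lsp1, Ppp1r14a and Des, with root mean square differences of 0.083 to 0.13 on the log2 scale, where the median over 14824 genes was 1.397. Myl4 encodes a myosin light chain of embryonic muscle and Des the muscle filament protein desmin. For Igf2 they were Actn2, Lgals9, Adamts2, Slc24a4 and St8sia5, with differences of 0.093 to 0.11 against a median of 0.920. All of these were higher in Bahd1-KO replicate 3 than the mean of the other embryos, by 4.14 to 19.7 times, so the likeness rests mainly on that embryo.

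Of 28 further genes of the pathway (insulin genes, other receptors and binding proteins, IGFBP proteases, their stanniocalcin inhibitors and signalling proteins), 26 were tested, with 14 positive and 12 negative log2 fold changes and a median of 0.053, beside 0.060 over all genes. Without Bahd1-KO replicate 3, 16 were positive and 10 negative, with a median of 0.097 beside -0.0079. None passed the adjusted threshold (background 0.00404%), and 1 of the 26, Stc2, had an unadjusted p under 0.05, where 4.67% of all genes did (edgeR). Stc2 encodes stanniocalcin-2, an inhibitor of the protease that cleaves IGF-binding proteins. Its level was 10.3, 7.59 and 11.5 CPM in the Bahd1-KO and 5.65, 6.34 and 4.9999 CPM in the Bahd1-WT replicates, so that every Bahd1-KO value lay above every Bahd1-WT value. edgeR put the log2 fold change at 0.79 ± 0.31 SE (unadjusted p = 0.0386, adjusted p = 0.696), and 0.64 ± 0.26 SE without Bahd1-KO replicate 3 (unadjusted p = 0.0396, adjusted p = 0.981, edgeR). Igfbp7 was the other gene on the list without overlap, at 25.2, 26.7 and 48.9 CPM in Bahd1-KO and 21.8, 23.9 and 23.9 CPM in Bahd1-WT. These 2 of 26 stand beside 6.71% of all genes without overlap, and the same number without Bahd1-KO replicate 3 beside 10.7%.

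Igf2r, which encodes the clearance receptor of IGF2, and Grb10, which encodes an adaptor that restrains receptor signalling, were named after their values were seen, as was Igfbp7. Both are imprinted. Igf2r had 61.1, 60.7 and 256 CPM in Bahd1-KO and 60.01, 82.0 and 70.8 CPM in Bahd1-WT replicates. Grb10 had 188, 172 and 761 CPM in Bahd1-KO and 161, 165 and 203 CPM in Bahd1-WT replicates. Each was again high in Bahd1-KO replicate 3 and overlapped between genotypes elsewhere, and their log2 fold changes of 0.83 and 1.08 became -0.23 and 0.014 without that embryo.

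None of 13 genes known to act on Igf2 or H19, among them Ctcf, Zfp57, Trim28, Dnmt1 and the antisense RNA gene Igf2os, passed the adjusted threshold or an unadjusted p of 0.05, which 0.00404% and 4.67% of all genes passed (edgeR). Their median log2 fold change was -0.14, beside 0.060 over all genes, and turned to 0.034, beside -0.0079, without Bahd1-KO replicate 3. Those with the largest fold changes were Hmga2, Igf2os and Plagl1, with log2 fold changes of 1.51, 1.47 and 1.02, which became 0.034, 0.18 and 0.27 without Bahd1-KO replicate 3. The counts of Igf2os, on the strand opposite to Igf2, were 106, 183 and 544 for Bahd1-KO replicates and 127, 160 and 188 for Bahd1-WT replicates, again highest in Bahd1-KO replicate 3. Among 59 genes within 500 kb of Igf2 or H19, 34 had a count, 23 were tested and 0 passed either threshold (edgeR, the same backgrounds), as did 0 of the 22 tested without Bahd1-KO replicate 3 (backgrounds 0.0171% and 1.48%). The largest log2 fold changes there, of 2.85 for Tnnt3, 2.66 for Tnni2 and 2.18 for Lsp1, became -0.53, -0.67 and -0.17 without Bahd1-KO replicate 3. Tnnt3 and Tnni2 encode troponins of fast skeletal muscle.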

How the data were processed

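The authors deposited raw counts of reads per Ensembl gene, 1 column per embryo. Per the study's methods, poly(A) RNA was made into stranded TruSeq libraries, reads were trimmed with cutadapt 1.11, aligned to GRCm38 and counted over exons by strand with featureCounts 1.4.6-p3. STAR 2.5.0a and TopHat2 are both named, and which aligner made this table is not stated. Default counting drops reads on exons of 2 genes, which would lower the Igf2 row.

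Genes with at least 10 counts in sum were tested with the edgeR 4.0.16 quasi-likelihood test (R 4.3.3; TMM factors; genotype only; two-sided; Benjamini-Hochberg over all genes, threshold 0.05). This test reports no standard error. Each SE was derived from it, as the size of the log2 fold change divided by the square root of the F statistic. Intervals are 95%, taken as this SE times a t quantile on either side of the fold change, and are therefore approximate. Counting error was at most 3.68% of the lowest count of each of the 10 genes, so embryos, not depth, limit precision. Nothing says whether embryos shared a litter. Levels are TMM-scaled CPM, and a pseudocount of 0.5 entered the Igf2 to H19 ratio. Exon sharing came from GENCODE M21. Simulated counts, with the same spread set for every gene, were used only to check the fitting steps. They do not show how the fit behaves with an embryo like Bahd1-KO replicate 3.

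The genes, lists and tests were chosen with earlier results of these data known. Besides these 10 genes and Bahd1, the rule named genes of the context lists with an unadjusted p under 0.05, or else the 3 largest fold changes, and the 5 genes of mean CPM of at least 1 most like Igf2 and H19. Marker lists for 11 tissues or cell types were summed. Placenta markers reached 13.4 CPM in Bahd1-KO replicate 2 and at most 0.157 CPM elsewhere, and are not drawn. Alternatives were other scalings and filters, DESeq2 1.42.0, voom with embryo weights (limma 3.58.1), the replicate number as a block and each embryo left out. DESeq2 or total counts without Bahd1-KO replicate 3 were added after seeing the data.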

Additional observations from a re-analysis of the deposited data

How the results depend on the processing

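Over 17 alternative fits, 0 of the 10 IGF genes and 0 of the further pathway genes tested (22 to 27, by the filter) passed the adjusted threshold. The number of genes called over the whole table, 1 here, was 8 with DESeq2, 6 with voom, 0 with at least 10 counts in every embryo, and 0 to 4 with each embryo left out. Without Bahd1-KO replicate 3 it was 4, with total counts 4 and with DESeq2 11. The median of the 10 genes was -0.15 to 0.41 with each embryo left out, -0.089 with voom, and -0.16 (DESeq2) and -0.13 (total counts) without Bahd1-KO replicate 3. Leaving out embryos gave -0.23 to 1.29 for Igf2, -0.19 to 2.45 for H19, -0.23 to 0.58 for Igfbp4 and -0.11 to 0.32 for Igfbp5. For these 4 genes in this order, voom gave -0.27, -0.096, -0.28 and -0.072. Without Bahd1-KO replicate 3, DESeq2 gave -0.24, -0.20, -0.23 and -0.11, and total counts -0.21, -0.18, -0.21 and -0.087. Total counts with all embryos gave -0.0081 for Igfbp4 and -0.060 for Igfbp5, and upper-quartile factors 0.013 for Igf1r. The other 151 of 170 values of the 10 genes kept their sign. The cause of these changes was not tested beyond leaving out embryos.

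With the replicate number as a block, 0 genes were called over the table, 0 of the 10, and their median was 0.21. The deviations of same-numbered embryos correlated at 0.26, 0.34 and -0.12, and not every embryo correlated best with its own number. Each deviation was taken from the mean of the few embryos of its own genotype. These values therefore cannot decide whether the numbers pair the embryos.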

Other observations

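Of the other marker lists, brain endothelium and pericytes summed to 996 CPM in Bahd1-KO replicate 3 against 438 to 519.5 CPM in the other embryos, and microglia to 117 against 78.7 to 97.4 CPM. The sums of blood markers (433 CPM) and of markers of radial glia and dividing progenitors (1901 CPM) lay within the range of the others. Single genes did not all do so. Of 9 blood genes 5 were highest in Bahd1-KO replicate 3 and 0 lowest, and of 10 radial glia and progenitor genes 4 were highest and 5 lowest. Liver markers summed to 70.6 against 240 to 704 CPM, but nearly all of this was Ttr, which is also on the choroid plexus list. Without Ttr the liver sum was 14.6 CPM in Bahd1-KO replicate 3, above 4 of the other 5 embryos (1.504 to 34.0 CPM), and 5 of the 10 genes were highest in it and 1 lowest.

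The profiles closest to Igfbp2, chosen after its values were seen, were those of Pop7, Ddah2, Ftl1, Polr2f and Hspbp1, with root mean square differences of 0.099 to 0.14 on the log2 scale over 6 embryos, where the median over 14824 genes was 1.08. All 5 were lower in Bahd1-KO replicate 3, at 0.164 to 0.228 times the mean of the other embryos. The profiles closest to Igf1 were those of Nebl, Tbc1d8b, Tlr3, Samd9l and Chpt1, at 0.13 to 0.15, and each was 5.78 to 6.95 times higher in that embryo.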
